A study of Homo sapiens with 2 samples.

Results

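The genes that make cholesterol and hold its level were compared between total RNA and ribosome-protected RNA in SW13 cells, a cell line established from an adrenal adenocarcinoma of human origin. The 29 genes were chosen by symbol from their known roles, out of 23608 gene rows in the deposited table. They cover the enzymes from acetyl-CoA to cholesterol (21 genes), sterol sensing and control (5 genes), transport of sterol inside the cell (STARD4), and fatty acid synthesis and desaturation (FASN and SCD). No cell-surface receptor for cholesterol uptake is among them, and some steps of the pathway are not analysed here.

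Per the labels' protocols, 10000000 cells in medium with 10% serum were transfected at 80% confluence with 5 µg of Add2-Mhrt779 and Add2-Hotair, which carry murine non-coding RNAs. Lipofectamine 2000 in Opti-MEM was used, and the cells were collected after 48 h. One preparation was total RNA, and the other was RNA left under ribosomes by the ARTseq kit, in which nuclease treatment leaves the stretches that ribosomes shield (footprints). Each assay had 1 library, read from both ends at 50 nt. Both libraries came from transfected cells, so no group without transfection was compared. The labels do not say whether the plasmids were given to the same or to separate cultures.

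Cells make cholesterol from acetyl-CoA by way of mevalonate, prenyl diphosphates, squalene and lanosterol, mostly at the endoplasmic reticulum. When membrane sterol is low, SCAP carries the precursors of the transcription factors SREBF1 and SREBF2 to the Golgi, where they are cut and released to switch on the enzyme genes. When sterol is high, INSIG1 and INSIG2 hold SCAP in the endoplasmic reticulum. In the adrenal cortex cholesterol is also the starting material of steroid hormones.

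The defining markers of adrenal steroid synthesis were mostly listed at 0 in these cells. Of 11 adrenal cortex markers, 9 were listed at 0 FPKM in both libraries, among them STAR, CYP11A1, CYP17A1, CYP21A2 and NR5A1. FDX1 had 1.13 FPKM in total RNA and 4.10 FPKM in footprints, and FDXR had 4.13 and 2.22 FPKM. The 11 markers summed to 5.25 and 6.32 FPKM. Of 5 adrenal medulla markers and 5 hepatocyte markers, 4 each were listed at 0 in both libraries. Of 5 mesenchymal markers, vimentin (VIM) had 490.2 FPKM in RNA sequencing and FN1 2.96, COL1A1 and SPARC had 0.387 and 0.327, and COL1A2 was listed at 0. Of 5 epithelial markers, the keratins KRT8 and KRT18 had 41.9 and 57.2 FPKM, while EPCAM, KRT19 and CDH1 were listed at 0.

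FPKM is fragments scaled by transcript length and by the mapped fragments of the library, so levels of different genes below are per length. The ratio used is the log2 of footprint FPKM plus 1 over total RNA FPKM plus 1, less the median of that value over the 2734 rows with a mean FPKM of at least 10. That median was 0.39, so before centring the median gene stood 1.31-fold higher in footprints, and "above" or "below" refers to it unless the authors' deposited table is named. Replicates were absent, so no p-value was computed.

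All 29 genes were detected in both libraries, and 22 had the higher FPKM in ribosome profiling and 7 in RNA sequencing as deposited. The share of all rows for that count was not computed, and the median gene was itself 1.31-fold higher in footprints before centring. The enzymes were mostly at or above the median gene, with 15 of 21 above it and 6 below it, and a median of 0.28. Of all rows, 50% of those with a mean of at least 10 FPKM and 29.5% of those with at least 1 FPKM were above it. Of the 29 genes, 8 close to 0 changed sign with the centre or the pseudocount. The 5 control genes were all below it, with a median of -1.06, equal to 2.09-fold lower. SREBF1 among them lay close to 0 and turned positive when the ratio was not centred, at 0.29. SREBF1 was also positive with the centre over rows at 1 FPKM or more, at 0.45, and over unfiltered rows, at 0.58. STARD4 was lower than each control gene, at -1.52. In the plot of levels in pathway order, the ribosome profiling value lies to the right for most enzymes and to the left for most control genes.

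**Figure D1:**
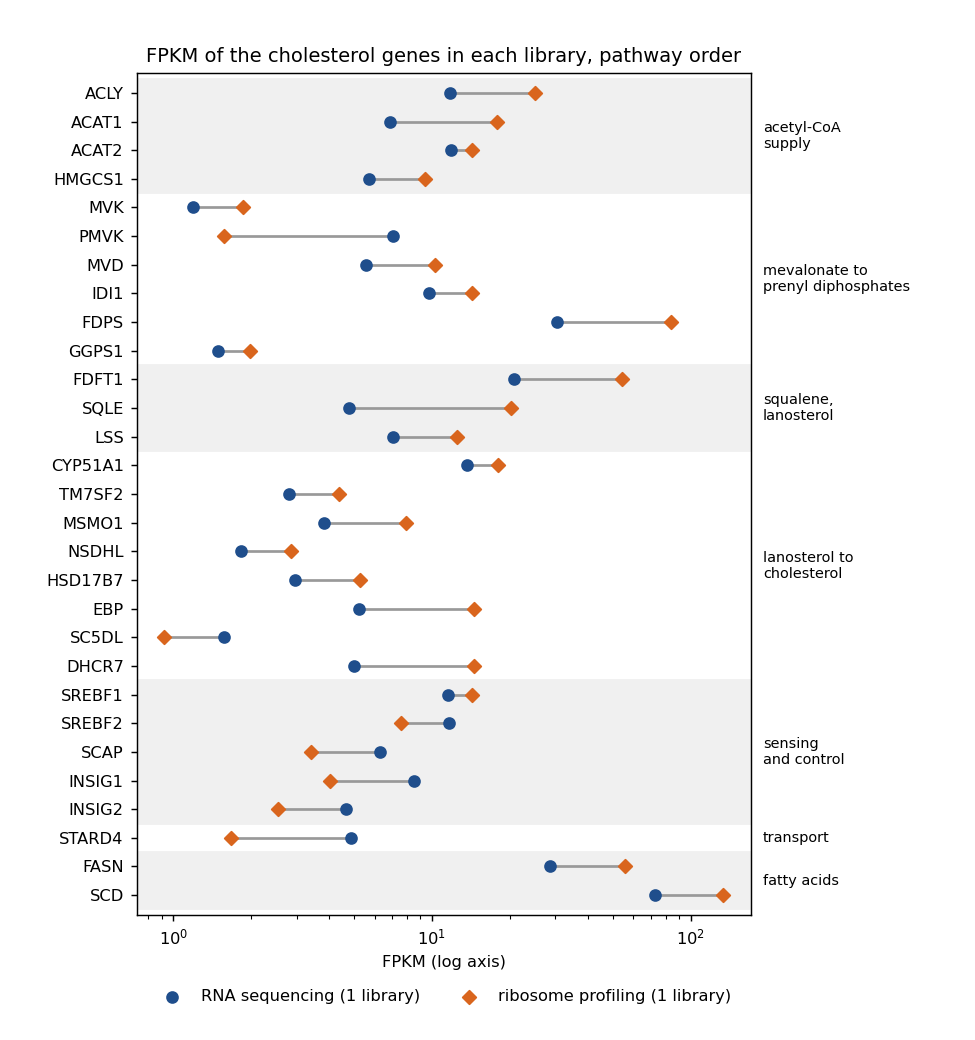
FPKM of the 29 cholesterol genes on a log axis, in pathway order, with circles for the RNA sequencing library and diamonds for the ribosome profiling library, 1 value each. The ribosome profiling value is the higher in 22 genes, and the 7 exceptions are PMVK, SC5DL, SREBF2, SCAP, INSIG1, INSIG2 and STARD4.

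A mean of 10 FPKM was reached by 11 of the 29 genes and missed by 18. Among the 11, 2 (SQLE and FDPS) passed 2-fold above that centre, against 13.1% of the 2734 rows, and 0 were at least 2-fold below, against 19.7%. The median of the 11 was 0.54, beside 0.04 over the protein-coding rows tested, and 8 of the 11 were above 0. Of the 11, 3 (ACAT1, IDI1 and SQLE) were under 10 FPKM in RNA sequencing and passed through their ribosome profiling value, so this median gives no support to a shift of the pathway.

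All 29 genes had a mean of at least 1 FPKM, and so had 10853 rows. Over this wider set the same 2 genes were at least 2-fold above, against 6.15% of rows. A set of 5 genes (PMVK, SCAP, INSIG1, INSIG2 and STARD4) were at least 2-fold below, against 33.5% of rows. These counts keep the centre of the rows at 10 FPKM or more. With the centre taken over the 10853 rows themselves, 10 of the 29 genes were at least 2-fold above and only PMVK was at least 2-fold below, at -1.49. The median of the 29 was 0.12, and the median of all such rows was -0.55 with 29.5% of them above 0. The low rows set that background: the 8119 rows with a mean from 1 to 10 FPKM had a median of -0.71 and quartiles of -1.42 and -0.062. The 3 of 5 control genes past 2-fold are to be read against that background, and with the centre over the 10853 rows none of them passed: INSIG1 was at -0.76, SCAP at -0.57 and INSIG2 at -0.52, with STARD4 at -0.98.

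Set against rows of its own range (mean from 1 to 10 FPKM, or at least 10 FPKM), each gene has a percentile. By that description 19 of the 29 were above the median of their range and 10 below it, 15 were above the 75th percentile, and 2 (PMVK and STARD4) were below the 25th. The enzymes were above the median of their range in 17 of 21 genes. The control genes were above it in 0 of 5, and lay between the 28.2th percentile (INSIG1) and the 45.8th (SREBF1). These percentiles depend on the range. Genes under 10 FPKM rank higher in their own range than among rows at 10 FPKM or more. LSS was at the 87.3th against the 65.3th, MVK at the 77.2th against the 49.8th, and SREBF2 at the 40.5th against the 20.8th. The mean that sets the range also contains the ribosome profiling value, so these counts give no support to a shift of the enzymes.

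**Figure D2:**
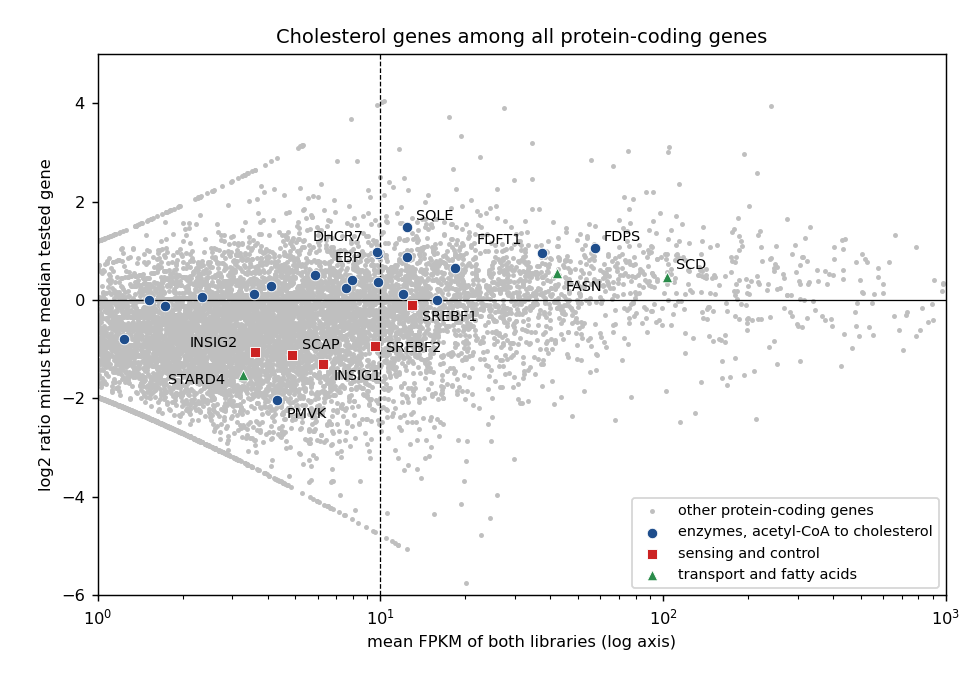
Ratio of ribosome profiling over RNA sequencing (log2, pseudocount 1 FPKM, minus the median tested gene) against mean FPKM of both libraries (log axis), for protein-coding genes with a mean of at least 1 FPKM, with the dashed line at 10 FPKM. The grey cloud sits below 0 left of the line, where its median is -0.68, while enzymes (circles) lie mostly near or above 0 and 4 of the 5 control genes (squares) lie near -1.

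The authors' deposited table gives a log2 ratio, a test statistic and a q-value for each row. It called 0 of the 20 members that it tested, against 1.3% of its 4849 tested rows, and left 9 members untested. The standard error implied by the statistic ran from 0.71 to 1.61 over the 29 genes, with a median of 0.93, and is a model error with no spread between cultures in it. The 95% interval of the authors' log2 ratio excluded 0 for SQLE and FDPS. For 0 of the 29 genes did it exclude the median gene.

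The low FPKM values held whole-number steps, from which fragments per gene could be estimated. Of 10894 rows above 0 in both libraries, 393 had a footprint FPKM of 1.56 times the total RNA FPKM to 4 decimals, the most frequent ratio, and 42.7% had 1.56 times a ratio of small whole numbers within a relative tolerance of 1e-05. Such ratios cover 0.661% of the range searched. One fragment was therefore worth 1.56 times more FPKM in ribosome profiling. From transcript lengths, about 1670000 fragments stood behind the RNA sequencing scale and 1070000 behind the ribosome profiling scale. Of the 29 genes, 12 fell on such a pair. A pair fixes only the ratio, so its fragments were taken as a whole multiple of the pair, with the multiple estimated from length. For the other 17 the fragments were estimated from length alone. Intervals from them are exact binomial 95% intervals that cover counting error only, on the log2 scale without a pseudocount, less the same centre of 0.39 that was taken with the pseudocount.

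By counting alone, 9 genes lay above that centre, 5 below it, and the interval of 15 included it. The same shares over all rows were not computed. The 5 below (PMVK, SREBF2, SCAP, INSIG1 and STARD4) had means from 1 to 10 FPKM, where all rows had a median of -0.71 with the pseudocount. Of their intervals only that of STARD4 lay wholly under -0.71, so these counts do not set the members apart from other low rows. Fewer than 10 fragments in a library stood behind 9 of the 29 genes. The counting standard error had a median of 0.40, and the authors' standard error was the larger in 28 of 29 genes. A gene separated from the median gene by counting error is not thereby separated by the error of a repeated experiment, which these data do not hold.

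**Figure D3:**
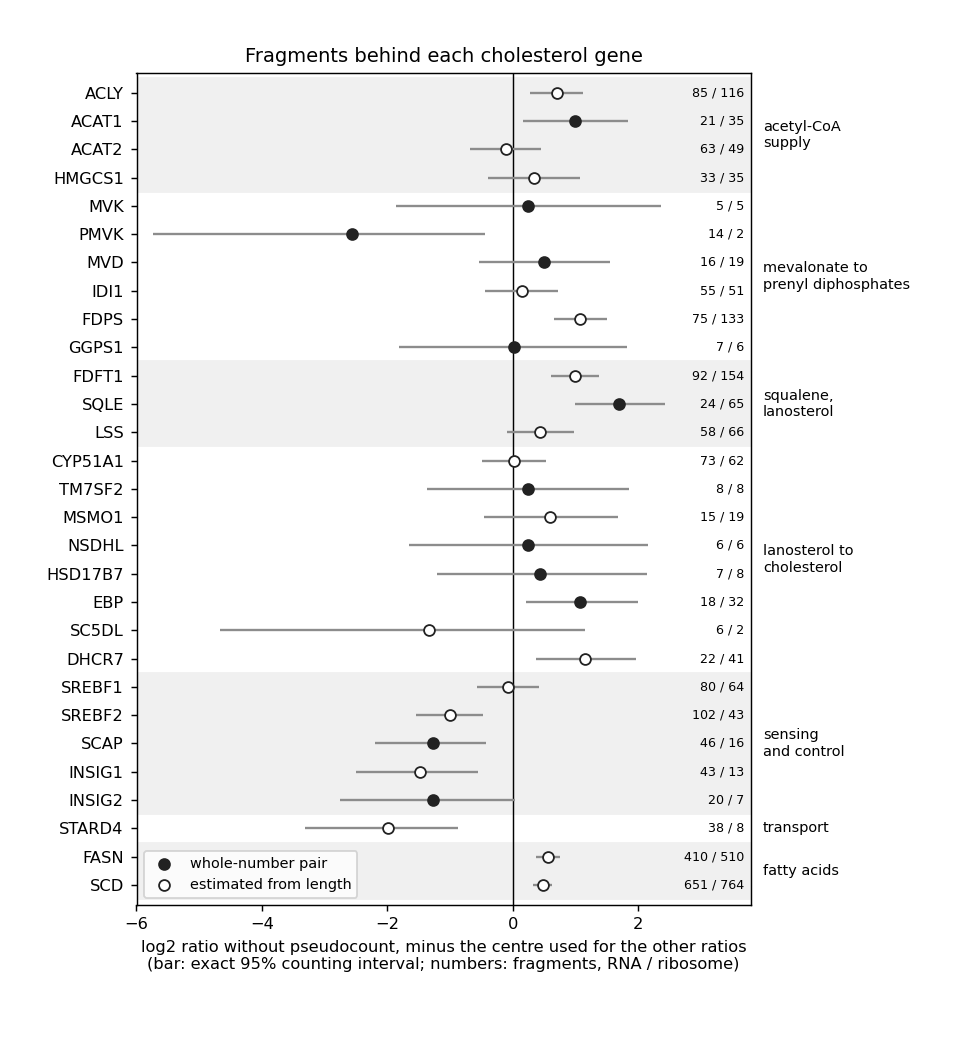
Ratio without a pseudocount (log2, less the centre of 0.39) for the 29 genes in pathway order, with bars for exact 95% counting intervals, and the fragments in RNA sequencing and ribosome profiling written at the right. Filled points are genes on a whole-number pair, with its multiple estimated from length, and open points are estimates from length alone. SQLE (24 and 65 fragments) lies highest and PMVK (14 and 2) lowest.

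Acetyl-CoA supply and its first condensations had a median ratio of 0.44 over 4 genes. ACLY, which makes cytosolic acetyl-CoA from citrate, had 11.7 FPKM in total RNA and 24.98 in footprints, 1.56-fold above the median gene. About 85 and 116 fragments stood behind these values, and the counting interval of 0.29 to 1.12 lay above 0. HMGCS1, which joins acetoacetyl-CoA with acetyl-CoA, had 5.71 and 9.40 FPKM, 1.18-fold above, with an interval that included 0.

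The 2 acetoacetyl-CoA thiolases differed in value but not beyond the authors' error. ACAT1, the mitochondrial enzyme, had 6.89 FPKM in total RNA and 17.9 in footprints, on about 21 and 35 fragments, 1.83-fold above the median gene. ACAT2, the cytosolic enzyme of the sterol pathway, had 11.8 and 14.3 FPKM, 1.10-fold below, and was above at 0.26 without centring. Its row shares its locus (chr6:160181291-160210735, hg19) with TCP1 at 66.9 and 78.2 FPKM and with SNORA20 at 306.3 and 597.9 FPKM, so reads may have been divided between them. By the authors' deposited table, the ratio of ACAT1 on the log2 scale exceeded that of ACAT2 by 1.10, with a 95% interval of -1.40 to 3.60.

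From mevalonate to the prenyl diphosphates, 6 genes spread from the lowest ratio of all members to one of the highest, with a median of 0.055. PMVK, which adds the next phosphate to phosphomevalonate, had 7.07 FPKM in total RNA and 1.58 in footprints, 4.10-fold below the median gene. Its row (chr1:154897208-154909484, hg19) fell on the pair 7 to 1, taken from length as about 14 and 2 fragments. The difference thus rests on about 2 fragments in ribosome profiling, and the counting interval ran from -5.73 to -0.43. The authors' log2 ratio was -2.17 ± 1.61 (standard error), with a q-value of 0.53. PMVK also has the shortest coding sequence of the members, at 576 bases.

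FDPS, which builds farnesyl diphosphate, the branch point to sterols, dolichol and protein prenylation, was the other end of this group. It had 30.3 FPKM in total RNA and 84.3 in footprints, 2.08-fold above the median gene, on about 75 and 133 fragments. The counting interval was 0.66 to 1.51. The authors' log2 ratio, from the deposited table, was 1.48 ± 0.71 (standard error), with a 95% interval of 0.082 to 2.87 and a q-value of 0.313. The row (chr1:155278539-155300909, hg19) shares its locus with RUSC1, which had 6.48 and 4.69 FPKM.

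The other 4 genes of this stretch were near the median gene. MVK, the mevalonate kinase, had 1.19 and 1.86 FPKM on about 5 and 5 fragments, and its ratio was -0.0053. MVD, which removes carbon dioxide to give isopentenyl diphosphate, had 5.57 and 10.3 FPKM, 1.32-fold above. IDI1, which interconverts isopentenyl and dimethylallyl diphosphate, had 9.75 and 14.2 FPKM, 1.08-fold above. Its row shares its locus with IDI2-AS1, listed at 0 FPKM in total RNA and 7.39 in footprints, so reads may have been divided between them. GGPS1, which makes geranylgeranyl diphosphate, had 1.49 and 1.99 FPKM on 7 and 6 fragments, 1.09-fold below. The counting intervals of these 4 genes included 0, and the sign of MVK, IDI1 and GGPS1 changed with the rows used as centre or with the pseudocount.

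The first committed steps of sterol synthesis held the highest group median, 0.96 over 3 genes. SQLE, the squalene epoxidase and a flux-controlling oxygenase, had 4.78 FPKM in total RNA and 20.2 in footprints, 2.80-fold above the median gene and the highest of the members. It stood on 24 and 65 fragments, with a counting interval of 0.99 to 2.43. The authors' log2 ratio, from the deposited table, was 2.08 ± 0.88 (standard error), with a 95% interval of 0.35 to 3.81 and a q-value of 0.236.

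FDFT1, the squalene synthase, had 20.7 FPKM in total RNA and 54.1 in footprints, 1.94-fold above and just inside the 2-fold line. About 92 and 154 fragments gave it a counting interval of 0.61 to 1.38. LSS, which folds oxidosqualene into lanosterol, had 7.07 and 12.5 FPKM, 1.28-fold above, with an interval that included 0. All 3 genes of the group kept a positive ratio in each alternative run.

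From lanosterol to cholesterol the 8 genes had a median of 0.19, and 2 stood highest. DHCR7, which reduces 7-dehydrocholesterol to cholesterol, had 5.01 FPKM in total RNA and 14.5 in footprints, 1.98-fold above. EBP, the sterol isomerase, had 5.22 and 14.5 FPKM, 1.90-fold above. Their means of 9.78 and 9.86 FPKM were just under 10, and they lay at the 96.0th and 95.5th percentiles of rows from 1 to 10 FPKM. Among all rows at 1 FPKM or more they lay at the 93.6th and 93.0th, with SQLE at the 97.0th and FDPS at the 94.4th. About 22 and 41 fragments (DHCR7) and 18 and 32 (EBP) stood behind them. The counting intervals were 0.37 to 1.97 and 0.21 to 2.00.

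The remaining 6 genes of this stretch had counting intervals that included 0. CYP51A1, the lanosterol demethylase, had 13.7 and 18.04 FPKM and a ratio of -0.011, on about 73 and 62 fragments. MSMO1, a sterol methyl oxidase, had 3.83 and 7.95 FPKM, 1.42-fold above. HSD17B7, the sterol ketoreductase, had 2.95 and 5.25 FPKM, 1.21-fold above. TM7SF2, a sterol reductase, stood on about 8 and 8 fragments. NSDHL, a sterol dehydrogenase that removes a carboxyl group, stood on about 6 and 6. Both rows had exactly the most frequent FPKM ratio. SC5DL, the lathosterol oxidase, had 1.57 and 0.924 FPKM, 1.75-fold below, on about 6 and 2 fragments.

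**Figure D4:**
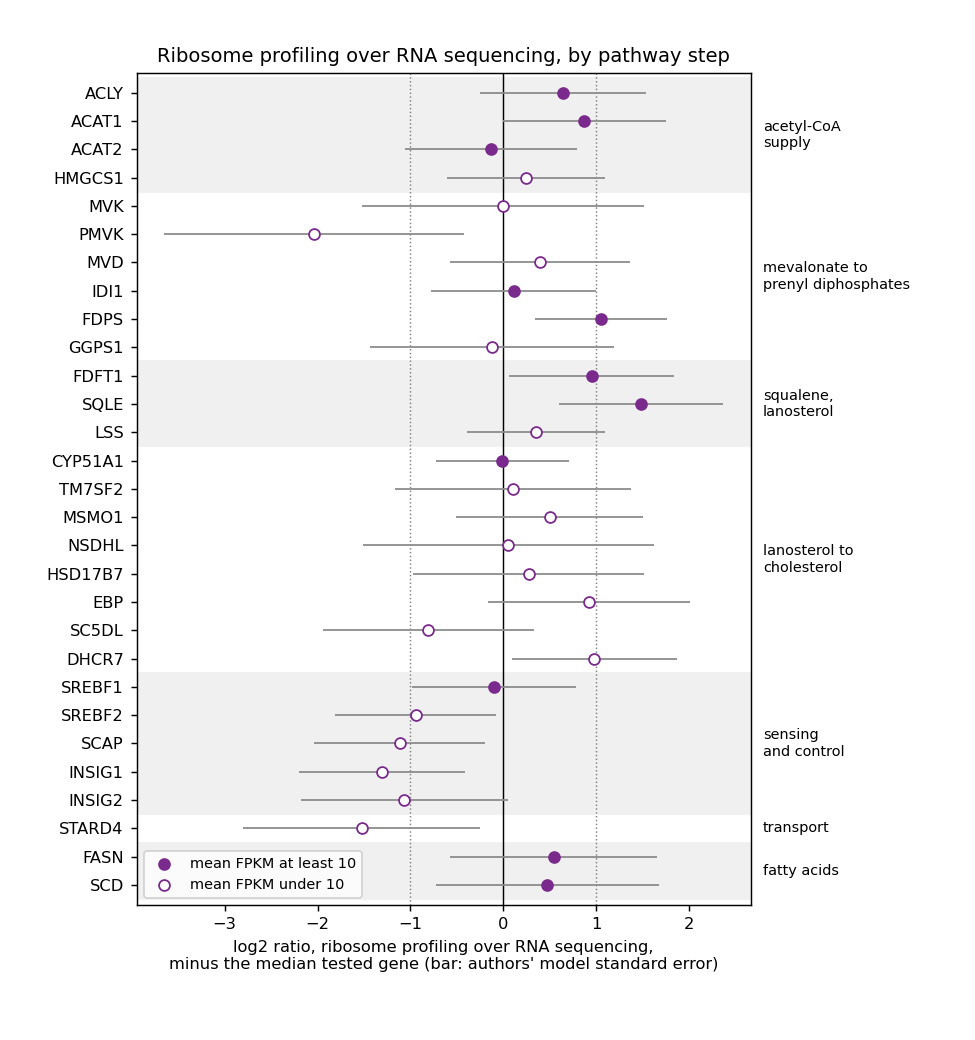
Ratio of ribosome profiling over RNA sequencing (log2, pseudocount 1 FPKM, minus the median tested gene) along the pathway; filled points have a mean of at least 10 FPKM, bars are 1 standard error of the authors' model to either side, and dotted lines mark 2-fold. SQLE and FDPS lie past the upper line, PMVK, SCAP, INSIG1, INSIG2 and STARD4 past the lower one, and most bars cross 0.

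Genes that sense sterol and control the pathway lay below the median gene with this centre, 3 of the 5 by 2-fold. With the centre over rows at 1 FPKM or more, 0 were 2-fold below and SREBF1 was above, at 0.45. INSIG1, which retains SCAP when sterol is high, had 8.52 FPKM in total RNA and 4.03 in footprints, 2.48-fold below. Its row (chr7:155089486-155101945, hg19) stood on about 43 and 13 fragments, with a counting interval of -2.49 to -0.55. INSIG2, its relative, had 4.66 and 2.54 FPKM, 2.09-fold below, on 20 and 7 fragments, and its interval of -2.75 to 0.038 included 0. By the authors' deposited table, INSIG1 minus INSIG2 was -0.21 on the log2 scale, with a 95% interval of -3.01 to 2.59.

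SCAP, the escort of the SREBP precursors, had 6.29 FPKM in total RNA and 3.42 in footprints, 2.16-fold below. It stood on about 46 and 16 fragments, with a counting interval of -2.19 to -0.42. SREBF2, the factor that favours cholesterol genes, had 11.6 and 7.59 FPKM, 1.92-fold below and just short of the 2-fold line, on about 102 and 43 fragments with an interval of -1.54 to -0.47. SREBF1, the factor that favours fatty acid genes, had 11.5 and 14.3 FPKM, 1.07-fold below, on about 80 and 64 fragments with an interval of -0.57 to 0.42.

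SREBF1 and SREBF2 thus had like levels in RNA sequencing and unlike levels in ribosome profiling. The difference of their log2 ratios in the authors' deposited table was 0.93, with a 95% interval of -1.49 to 3.35 that includes 0. SREBF1 shares its locus with RAI1, at 6.28 and 1.41 FPKM. For INSIG1, INSIG2, SCAP and SREBF2 the FPKM was lower in ribosome profiling also as deposited, and each kept a negative ratio in every alternative run. The authors' q-values were 0.585 for INSIG1, 0.673 for SCAP and 0.768 for SREBF2.

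STARD4, which carries sterol between membranes in the cytosol, had 4.88 FPKM in total RNA and 1.68 in footprints, 2.88-fold below. About 38 and 8 fragments gave a counting interval of -3.31 to -0.87. Its locus is shared with NREP, at 2.28 FPKM in total RNA and at 0 in the list of footprint values. The authors' table left STARD4 untested.

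The fatty acid enzymes had the most fragments of all members. SCD, which puts the double bond into stearate, had 72.8 FPKM in total RNA and 133.2 in footprints, 1.39-fold above. FASN, the fatty acid synthase, had 28.7 and 55.6 FPKM, 1.46-fold above. About 651 and 764 fragments (SCD) and 410 and 510 (FASN) gave the narrowest counting intervals of the 29 genes, 0.33 to 0.64 and 0.38 to 0.76. The authors' standard errors were 1.20 and 1.11, so at that error neither is separated from the median gene.

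Levels in the 2 libraries ran together across the 29 genes, with a Pearson r of 0.83 and a Spearman rho of 0.71 between log2 FPKM values. The ratio had a Spearman rho of 0.33 with coding length, 0.040 with the GC content of the coding sequence, 0.19 with RNA sequencing FPKM and 0.58 with mean FPKM, which contains the ribosome profiling value. These are descriptions across genes of 1 pair of libraries. The coding sequences ran from 576 to 7533 bases, with a median of 1200 against 1284 over all genes of GENCODE release 29. FPKM is scaled by transcript length, and the coding share of the transcript differs between members. STARD4, below the median gene, has 615 coding bases of 4606, and FDPS, above it, has 1257 of 1478. SCD, above it, has 1077 of 5362, and SCAP, below it, has 3837 of 4394. The relation of the ratio to the coding share was not tested. The 16 members listed as membrane proteins had a median ratio of 0.084. The other 13, among which LSS was placed, had a median of 0.24. No protein annotation was at hand to check these lists.

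Ribosomes choose a start codon partly by its neighbours, a purine at position -3 and a G at position +4 counted from the A of ATG as +1. All 29 annotated coding sequences began with ATG. A purine at -3 was present in 24 of the 29 genes and in 85.0% of 18663 genes, and G at +4 in 16 of the 29 and in 50.8%. Both were present in 12 of the 29 and in 42.7% of genes. INSIG1 was the 1 member with neither, as were 6.92% of genes. The 12 genes with both had a median ratio of 0.084 and the other 17 a median of 0.24.

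SREBP factors act through the sterol regulatory element, and SREBF2 and INSIG1 are themselves among the known targets, so promoters were searched for its letters. RefSeq promoters (GRCh38.p14, windows around the transcription start) were at hand for 25 of the 29 genes. Those of FASN, ACAT2, SQLE and FDFT1 were not, so the counts below do not cover these genes. The full element TCACNCCAC, on either strand, was found in 1 of the 25 (SREBF2) and in 1.39% of 27305 genes. Its core CACNCCAC, which the full element contains, was found in 5 (IDI1, SC5DL, SREBF2, INSIG1 and SCD) and in 7.05% of genes. The E-box CACGTG, which SREBP also binds, was found in 4 (LSS, SC5DL, SCAP and INSIG1) and in 8.77%. CCAAT, the site of the partner factor NF-Y, was found in 20 and in 39.7%, and the GC box GGGCGG, the site of SP1, in 24 and in 48.3%. The 27305 genes were not limited to protein-coding or detected genes, whereas the members are all both. The shares are thus over an unlike set, and the differences were not tested.

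The windows around the core in 4 of these genes are shown, 2 before genes below the median gene and 2 before genes above it; capitals mark the core or its reverse complement, and each reads 5′ to 3′ on the strand of the gene.
SREBF2: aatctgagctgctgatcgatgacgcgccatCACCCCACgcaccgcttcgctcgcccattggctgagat
INSIG1: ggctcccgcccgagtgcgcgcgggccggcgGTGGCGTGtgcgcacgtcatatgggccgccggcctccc
IDI1: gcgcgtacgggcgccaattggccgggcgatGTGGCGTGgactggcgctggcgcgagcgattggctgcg
SCD: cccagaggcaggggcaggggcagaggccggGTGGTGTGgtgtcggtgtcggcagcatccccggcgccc
They lie at chr22:41832943-41833010 on the plus strand, chr7:155297640-155297707 on the plus strand, chr10:1048964-1049031 on the minus strand and chr10:100347089-100347156 on the plus strand. The core starts 132, 208, 115 and 114 bases before the transcription start. SREBF2 and INSIG1 were below the median gene, at -0.94 and -1.31, and IDI1 and SCD above it, at 0.12 and 0.47, so members that hold the core had ratios on either side. SC5DL, the fifth gene with the core, was below at -0.81. These matches describe letters, not binding, and a ratio of ribosome-protected to total RNA does not measure transcription.

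Genes around the pathway were taken from 4 lists, and the authors called 0 in each. Of the 12 SREBP processing and sterol-regulated degradation genes listed, 2 reached 10 FPKM and 0 of these were past 2-fold, and of the 11 at 1 FPKM or more, 0 were 2-fold above and 2 below, where 6.15% of all such rows were above and 33.5% below. VCP, the segregase that pulls ubiquitinated proteins from the membrane, had 35.9 and 92.02 FPKM, 1.92-fold above, and the sterol-binding protein PGRMC1 had 9.70 and 13.6 FPKM. Of the 15 prenyl diphosphate users at 1 FPKM or more, 0 were 2-fold above and 3 below. The 1 that reached 10 FPKM was RABGGTB, a subunit of the Rab prenyl transferase, with 13.9 and 13.8 FPKM.

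Of 17 other fatty acid and lipid synthesis genes at 1 FPKM or more, 0 were 2-fold above and 4 below, against 6.15% and 33.5% of all such rows. Above the median gene lay 4 of the 17, and 29.5% of all such rows did. Of 6 at 10 FPKM or more, 0 were above 0, 2 were at least 2-fold below against 19.7% of rows, and the median was -0.71. Over the 17 at 1 FPKM or more the median was -0.48 with the same centre. It was 0.065 only when the centre was also taken over rows at 1 FPKM or more. AGPAT1, an acyltransferase of phosphatidic acid synthesis, had 27.7 and 4.50 FPKM, 6.84-fold below, and TECR, the last enzyme of fatty acid elongation, had 29.9 and 20.7 FPKM, 1.87-fold below. ACSL3, an acyl-CoA synthetase, had 14.5 and 18.4 FPKM, 1.05-fold below, and ELOVL1, an elongase of very long fatty acids, had 24.5 and 27.5 FPKM, 1.17-fold below, and both ratios were positive without centring. Of the 17 genes of sterol export, esterification and lysosomal release at 1 FPKM or more, 1 was 2-fold above and 5 below. The shares of all such rows were again 6.15% and 33.5%. CAV1, the caveolar protein, had 34.7 and 20.4 FPKM, 2.19-fold below, and NPC2, the lysosomal cholesterol carrier, had 29.1 and 32.3 FPKM. The differences between these lists and the cholesterol genes were not tested.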

How the data were processed

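The deposited table gives 1 FPKM value per gene for each library, computed by the authors, with their log2 ratio, p-value and q-value. Tools in the submitters' processing notes were Bowtie2 2.0.0.6, TopHat2 2.0.8b, bedtools and SAMtools, with no role given, and the builds mm10 and hg19. Which program counted fragments, and how libraries were scaled, is not given in the sources used here.

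Ratios used a pseudocount of 1 FPKM, which understates low genes, and were centred on rows with a mean of at least 10 FPKM without the status FAIL or HIDATA. The authors' standard error was taken as the size of their log2 ratio over that of their statistic. The naming rule took all 29 members and, in each other list, the tested genes of highest mean FPKM and of highest and lowest ratio. Members and lists were chosen with earlier results of these data known. The fragment estimates, counting intervals, own-range percentiles, start codon contexts and promoter motifs were added after the data were seen. Python 3.11.15 with scipy 1.17.1 was used, and the steps were tested on simulated data.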

Additional observations from a re-analysis of the deposited data

How the results depend on the processing

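No paired analysis was possible because each assay has 1 library. The alternatives were pseudocounts of 0.1 and 5 FPKM, minimum mean FPKM values of 1, 30 and none, rows the authors tested alone, no centring, and centring without small RNA genes. The median of the genes tested, 0.54, became 0.66 at a minimum of 1 FPKM, 0.79 unfiltered and 0.93 with no centring, and lay between 0.51 and 0.57 otherwise. The genes at least 2-fold above the median gene, 2 of 11, became 10 of 29 at a minimum of 1 FPKM (15.5% of all rows tested), 12 of 29 unfiltered (16.1%), 0 of 4 at a minimum of 30 FPKM (15.6%) and 5 of 11 with no centring (23.6%). The genes at least 2-fold below, 0 of 11, became 1 of 29 at a minimum of 1 FPKM (19.6% of all rows) and 1 of 29 unfiltered (15.02%). The centre itself moved from 0.39 to -0.16, -0.28 and 0.56 at minimums of 1 FPKM, none and 30 FPKM, and without centring 23.6% of all rows tested were 2-fold higher and 14.2% 2-fold lower. The sign held in all of these alternatives for 21 of the 29 genes, 14 above and 7 below (PMVK, SC5DL, SREBF2, SCAP, INSIG1, INSIG2 and STARD4). Depth limits the low genes most: 9 of the 29 had fewer than 10 fragments in a library, and 1 library per assay leaves no replicate error.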
